A study of Mus musculus with 27 samples.

Results

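Sites of the nuclear receptor LXR, the stress-induced factor ATF3 and the acetyltransferase P300 were compared with each other in Kupffer cells of mice on a NASH diet. The 3 deposited site lists held 51709 LXR, 38828 ATF3 and 52628 P300 sites, 143165 sites of the 228956 in all lists of the series. Sites of these lists that overlapped by at least 1 bp were joined into 71973 regions. Each region was then placed in 1 of 7 combinations by which factors had a listed site in it. The series holds 27 ChIP-seq samples, and the 6 libraries behind these lists were 2 each for LXR, ATF3 and P300. In ChIP-seq, an antibody to a factor or histone mark pulls down chromatin, and the DNA recovered with it is sequenced. The cells were F4/80-Hi Tim4-Pos Kupffer cells (macrophages that live in the liver) sorted from C57BL/6J mice, and no genetic change is named in the labels for either diet. The control-diet group had the same strain and gate, with 2 libraries each for LXR, ATF3, P300 and H3K27ac, the histone acetylation of active promoters and enhancers. LXR was precipitated with a mix of 3 antibodies, so its 2 forms, LXRα and LXRβ, are not told apart. The digestion buffer of the labels' protocol held flavopiridol, a blocker of transcription, for both diets.

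The labels do not give the weeks on the diet. The accessible windows used below come from ATAC-seq lists, of which 1 is named for 20 weeks of diet, while the NASH LXR and P300 lists carry the tag NASH30 in their headers, so times may differ between the lists. Each factor and diet has 1 list made from both libraries, so the lists carry no spread between replicates and the shares below are descriptions with no test. The exact 95% binomial intervals cover counting error only. For H3K27ac, the labels do not say whether separate animals gave the libraries, so its p-values measure the spread between these libraries.

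LXR binds DNA with RXR and, when loaded with oxysterols, turns on genes of cholesterol export and fatty acid synthesis. ATF3 belongs to the ATF and AP-1 family, whose basic leucine zipper proteins bind the palindrome of cAMP response elements and the shorter AP-1 element. P300 does not read a DNA sequence of its own. It is brought in by other factors and acetylates histone H3, and its occupancy is widely used to mark active enhancers and promoters.

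The promoters shown were picked for holding letters that were counted: each lies under the highest-ranked region of its combination among the protein-coding promoters that held them and were considered for display. Ties in rank, which ATF3-only regions at the highest IDR score all share, were ordered by NASH H3K27ac. The stretches below come from the RefSeq promoter table (build GRCm38.p6, the same coordinates as mm10), run 5′ to 3′ on the gene's strand and end upstream of the start site. Capitals mark the matched letters, and the coordinates are those of the printed stretch. The first 4 carry the cAMP response element palindrome TGACGTCA in promoters with an ATF3 site: Ccnl1 (cyclin L1) with all 3 factors at chr3:65958250-65958327 (minus strand), Lrrc8a (a volume-regulated anion channel subunit) with LXR+ATF3 at chr2:30237601-30237728 (plus strand), H4c1 (histone H4) with ATF3+P300 at chr13:23761250-23761343 (minus strand), and Galnt11 (a glycosyltransferase) with ATF3 only at chr5:25222783-25222871 (plus strand).
Ccnl1: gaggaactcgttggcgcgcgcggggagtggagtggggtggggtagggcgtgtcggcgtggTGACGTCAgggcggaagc
Lrrc8a: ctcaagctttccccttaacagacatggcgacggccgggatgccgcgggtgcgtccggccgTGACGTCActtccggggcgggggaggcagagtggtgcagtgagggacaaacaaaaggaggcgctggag
H4c1: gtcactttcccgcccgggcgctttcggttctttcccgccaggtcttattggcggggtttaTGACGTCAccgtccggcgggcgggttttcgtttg
Galnt11: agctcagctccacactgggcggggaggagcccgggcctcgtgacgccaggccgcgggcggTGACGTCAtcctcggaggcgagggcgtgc
Il15ra, the interleukin-15 receptor alpha chain, had an ATF3-only region at its promoter, and the AP-1 element stands in the stretch chr2:11705622-11705711 (plus strand).
Il15ra: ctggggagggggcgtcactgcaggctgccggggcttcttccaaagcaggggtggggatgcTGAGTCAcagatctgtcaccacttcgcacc
The remaining 3, picked in the same way, are promoters under regions without ATF3: Wdfy2 with LXR+P300 at chr14:62837580-62837689 (plus strand) and an ETS-type CCGGAAGT, Dedd with LXR only at chr1:171328919-171329044 (plus strand) and the nuclear receptor hexamer AGGTCA read on the other strand, and Ctsa (lysosomal cathepsin A) with P300 only at chr2:164833699-164833772 (plus strand) and CACGTGAC, the E-box type bound by TFEB-family factors, also on the other strand.
Wdfy2: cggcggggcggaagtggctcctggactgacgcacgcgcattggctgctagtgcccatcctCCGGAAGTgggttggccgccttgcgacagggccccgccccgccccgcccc
Dedd: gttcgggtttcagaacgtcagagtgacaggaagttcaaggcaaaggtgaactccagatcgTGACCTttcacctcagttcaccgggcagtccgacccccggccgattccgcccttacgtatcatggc
Ctsa: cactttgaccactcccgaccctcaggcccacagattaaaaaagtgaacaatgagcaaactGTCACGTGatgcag

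Over the 32817 promoters of 300 bp in that table, TGACGTCA on either strand was present in 1.79%. Among promoters overlapped by a region for at least 100 bp, its share was 7.88% of 165 with ATF3 only, 8.84% of 294 with ATF3+P300, 5.53% of 217 with LXR+ATF3 and 5.82% of 3714 with all 3 factors. The share was 1.54% of 586 with LXR only, 2.22% of 3475 with LXR+P300, 2.06% of 1116 with P300 only and 0.912% of 23250 with no region. Each of the 4 combinations with ATF3 lay above each of the 3 without it. The AP-1 element TGANTCA was in 18.2% of ATF3-only promoters and 10.2% with ATF3+P300. Its share was 7.83% with LXR+ATF3 and 7.70% with all 3, close to the 7.81% of all promoters, and 4.10% with LXR only, 4.12% with P300 only and 2.45% with LXR+P300, against 8.80% with no region. CCGGAAGT was in 13.1% of promoters with all 3 factors, 12.4% with LXR+ATF3, 10.0% with LXR+P300, 9.18% with ATF3+P300, 7.34% with LXR only, 6.99% with P300 only and 4.85% with ATF3 only. Each was above the 3.89% of all promoters and the 1.10% of those with no region. CACGTGAC, shown for P300 only, was not particular to it. It was in 7.88% with ATF3 only, 6.91% with LXR+ATF3, 5.73% with P300 only and 5.44% with ATF3+P300. Its share was 5.06% with all 3, 5.01% with LXR+P300 and 3.07% with LXR only, against 2.24% of all promoters and 1.07% with no region. The hexamer AGGTCA was in 15.9% of LXR-only promoters and in 16.3% of all promoters. Promoters of 1 gene can overlap, and bases outside these windows were not searched, so the letters under distal regions are not described.

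Regions with all 3 factors were the most numerous combination, at 25553 (35.5% of all regions). LXR+P300 followed with 13544 (18.8%), then P300 only with 10151 (14.1%), LXR only with 9569 (13.3%) and ATF3 only with 7193 (9.99%). The pairs LXR+ATF3 (2849, 3.96%) and ATF3+P300 (3114, 4.33%) were the smallest. Of the ATF3 list, 66.1% of sites lay in 3-factor regions, against 49.7% of the LXR list and 48.9% of the P300 list. ATF3 sites overlapped an LXR site in 73.1% and a P300 site in 73.7% of cases. LXR sites overlapped P300 in 75.8% but ATF3 in 54.9%, and P300 sites overlapped LXR in 74.6% and ATF3 in 54.4%. The ATF3 list is the shortest, so an overlap with it has a lower ceiling than an overlap with the others. With the lists brought to like length by score (39209, 38828 and 39265 sites), LXR+P300 was the combination whose count changed most, to 7829 regions.

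The sites in a shared region lay close together. In the 25227 regions with exactly 1 site of each factor, the median distance between site centres was 29 bp for LXR and ATF3, 29 bp for LXR and P300 and 28.5 bp for ATF3 and P300. Centres were within 50 bp of each other in 72.5%, 72.9% and 73.2% of these regions. In pairs the offsets were 30.5 bp for LXR+ATF3, 33 bp for ATF3+P300 and 33.5 bp for LXR+P300. The sites themselves were narrow, with a median of 232 bp for LXR, 223 bp for ATF3 and 238 bp for P300.

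**Figure D1:**
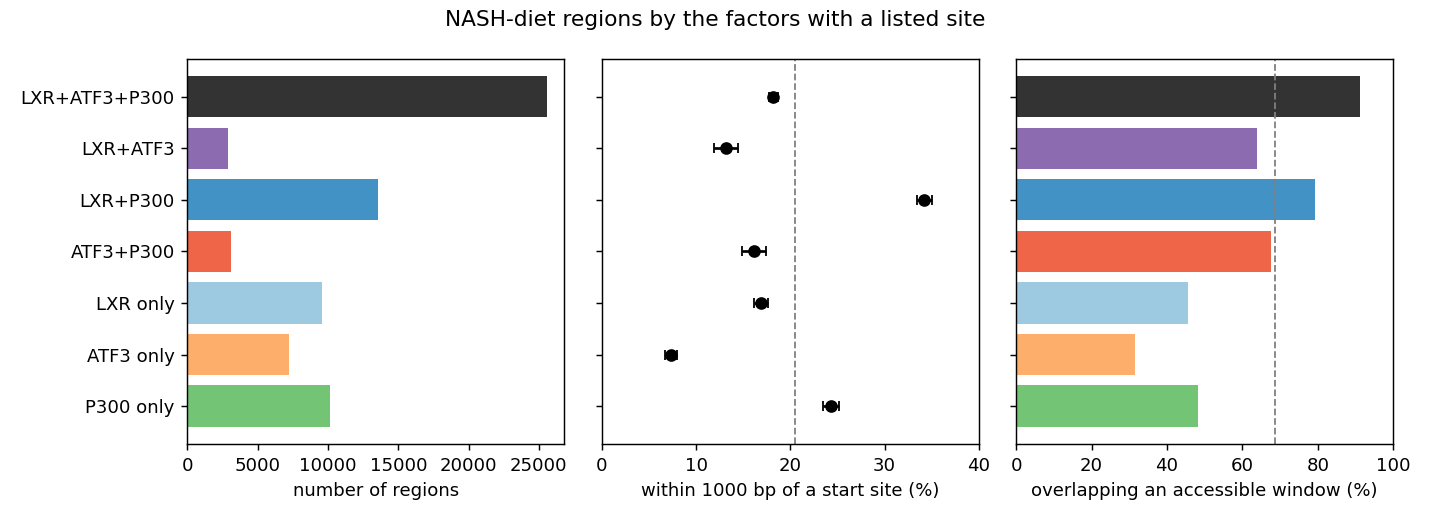
Bars on the left give the number of NASH-diet regions in each of the 7 combinations; points in the middle give the share with a centre within 1000 bp of a protein-coding start site, with exact 95% binomial intervals; bars on the right give the share overlapping an accessible (ATAC-seq) window. Dashed lines mark all regions (20.5% and 68.7%), and LXR+P300 stands highest near start sites (34.2%) while ATF3 only is lowest in both shares (7.33% and 31.5%).

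The combinations differed in position. Of LXR+P300 regions 34.2% (95% interval 33.4 to 35.0) had their centre within 1000 bp of a protein-coding start site, and of P300-only regions 24.3% (23.5 to 25.2). The share was 18.2% (17.7 to 18.7) with all 3 factors, 16.9% (16.1 to 17.7) with LXR only, 16.1% (14.9 to 17.5) with ATF3+P300, 13.2% (11.9 to 14.5) with LXR+ATF3 and 7.33% (6.74 to 7.95) with ATF3 only, against 20.5% of all regions. The intervals of LXR only and ATF3+P300 overlap. The median distance was 6351 bp for LXR+P300, 8596 bp for P300 only, 14153 bp for LXR only, 15335 bp for all 3, 16122 bp for ATF3+P300, 17891 bp for LXR+ATF3 and 24397 bp for ATF3 only. LXR only was thus nearer by the median than all 3 factors, although its share within 1000 bp was lower. Read the other way, LXR+P300 was 31.3% of regions within 1000 bp and 15.5% of those beyond, while ATF3 only was 3.57% and 11.7%. Regions with all 3 factors were 31.5% and 36.6%.

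P300-only regions were the combination most often inside a gene. Their centre lay within the span of a protein-coding gene in 67.4% of cases, and in 63.8% of those over 1000 bp from a start site. The other 6 combinations had 53.8% (LXR+ATF3) to 59.1% (LXR+P300) inside a gene. Among regions in an accessible window, the authors' HOMER annotation placed 35.6% of LXR+P300, 30.4% of P300-only, 17.6% of 3-factor and 10.8% of ATF3-only regions at promoters, and 22.7% of P300-only against 38.3% of ATF3-only regions between genes.

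Accessibility followed the number of factors. An accessible window was present at 91.1% of 3-factor regions, 79.4% of LXR+P300, 67.6% of ATF3+P300, 64.0% of LXR+ATF3, 48.2% of P300-only, 45.6% of LXR-only and 31.5% of ATF3-only regions. Beyond 1000 bp from start sites, 3-factor regions were again highest (89.5%) and ATF3 only lowest (29.0%), with P300 only at 37.5% and LXR only at 39.6%. Each window belongs to the control ATAC list, to the 20-week-diet list or to both. Windows on the 20-week list alone held 38.1% of the ATF3-only regions in windows, 21.1% of LXR+ATF3 and 18.4% of ATF3+P300, but 8.19% of all regions in windows. Windows on the control list alone held 39.3% of LXR-only, 31.6% of P300-only and 22.8% of LXR+P300 regions, against 17.8% of all. Of 3-factor regions in windows, 85.0% were on both lists.

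**Figure D2:**
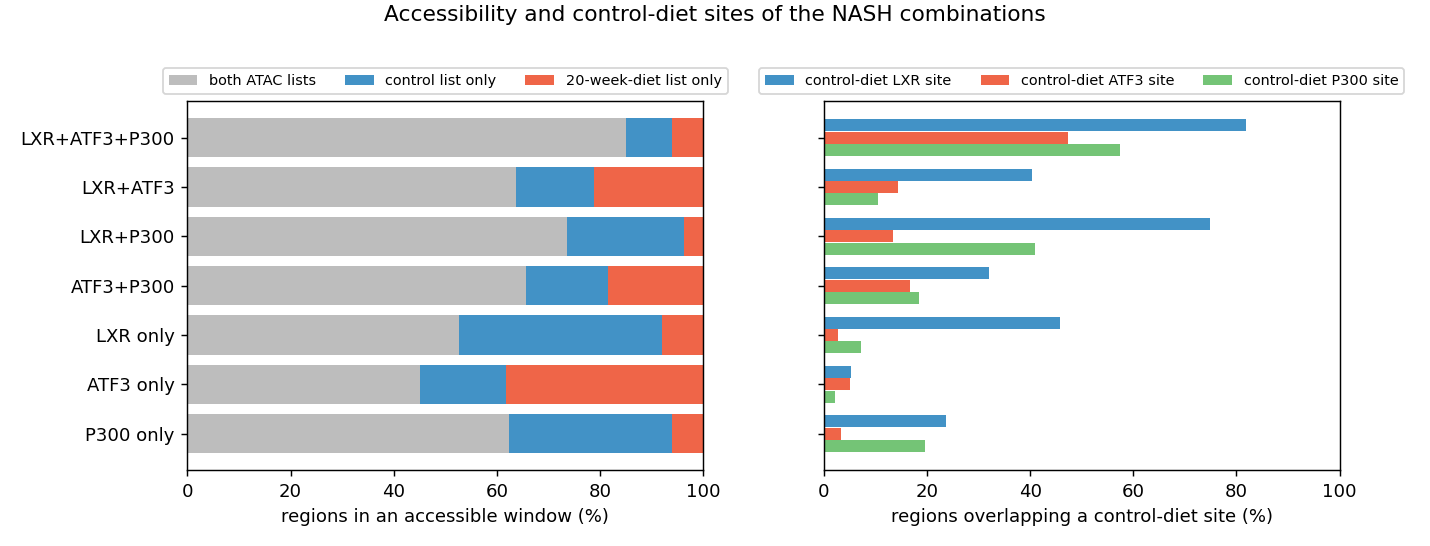
Stacked bars on the left split the regions that lie in an accessible window by the ATAC list of that window (both, control only, 20-week-diet only); grouped bars on the right give the share of all regions of a combination that overlap a control-diet LXR, ATF3 or P300 site by at least 1 bp. ATF3-only regions have the largest part on the 20-week list (38.1%) and few control-diet sites of any factor, while 81.8% of 3-factor regions overlap a control-diet LXR site.

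Control-diet sites were set beside the NASH combinations. The control lists held 44463 LXR, 16109 ATF3 and 25219 P300 sites. Of 3-factor regions 81.8% overlapped a control-diet LXR site, 57.5% a P300 site and 47.2% an ATF3 site, and 14.0% overlapped none. Their factor set was already complete on the control diet in 35.4%, LXR with P300 in 19.7% and LXR alone in 17.6%. LXR+P300 regions had a control-diet LXR site in 74.9% and none of the 3 in 19.4%. ATF3-only regions were at the other end: 89.8% overlapped no control-diet site, and 4.95% overlapped a control-diet ATF3 site. The share without a control-diet site was 63.9% for P300 only, 56.6% for ATF3+P300, 53.7% for LXR+ATF3 and 51.6% for LXR only. Since the control ATF3 and P300 lists are much shorter than the NASH lists, a missing control-diet site can be a site under that list's threshold.

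Scores, which the authors gave per site, were compared within a list only. In the LXR list the median enrichment score was 60 (quartiles 41 to 95) in 3-factor regions, 38 with LXR+P300, 33 with LXR+ATF3 and 29 (24 to 38) for LXR only. In the P300 list it was 65 (45 to 94) with all 3, 42 with LXR+P300, 34 with ATF3+P300 and 30 (25 to 38) for P300 only. The upper quartile of the single-factor sites was below the lower quartile of the 3-factor sites in both lists. The sources used here do not give the scale of the enrichment score. For ATF3, whose list has only the reproducibility (IDR) score, the highest score of 1000 was reached by 75.6% of sites in 3-factor regions, 55.1% with ATF3+P300, 53.3% with LXR+ATF3 and 42.1% for ATF3 only. Near start sites the 3-factor share at 1000 was 57.7% and farther away 79.5%. P300 scores went the other way, with a median of 72 near and 62 far in 3-factor regions and 53 near and 37 far with LXR+P300.

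Split by decile of the LXR list, 3-factor regions held 88.8% of the sites with the highest scores (113 and above) and 12.9% of those with the lowest (25 and below). LXR-only sites went from 1.39% to 51.0%. In the P300 list the 3-factor share went from 89.7% at scores of 107 and above to 10.0% at 26 and below, and P300-only sites went from 1.44% to 56.2%. LXR+P300 sites peaked in the middle, at 34.5% in the seventh decile of LXR and 34.7% in the sixth of P300.

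**Figure D3:**
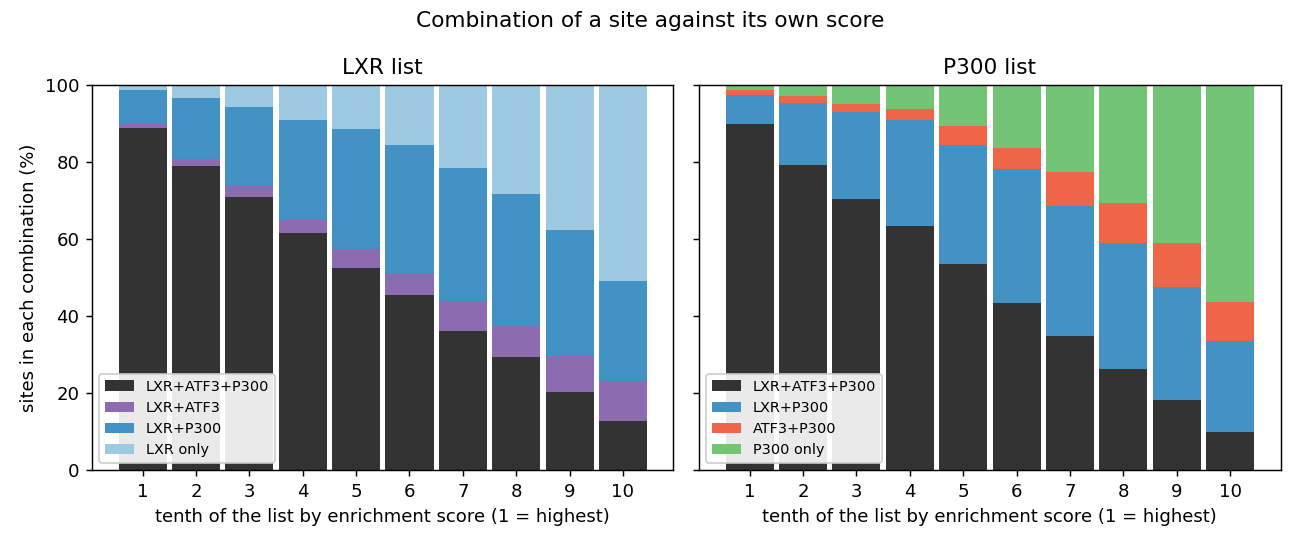
Stacked bars give, for each decile of the LXR list (left) and the P300 list (right) by the authors' enrichment score, the percentage of sites in each combination. The dark 3-factor part shrinks from 88.8% to 12.9% across the LXR list and from 89.7% to 10.0% across the P300 list, and the single-factor part at the top grows.

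The 4 regions ranked first by their within-list scores in each combination were taken as examples. With all 3 factors they were nearest to the start sites of Itga9 (an integrin; LXR score 473, P300 score 329, at chr9:118662607-118662856), Slc44a1 (a choline transporter; 418 and 306), Nol11 (410 and 290) and Mroh2a (461 and 275), and all 4 had control-diet sites of all 3 factors. The LXR+ATF3 combination was led by a region 14598 bp upstream of Scd1, the stearoyl-CoA desaturase and an LXR target, at chr19:44422066-44422548. Its LXR score was 375 and its ATF3 site had the highest IDR score. It had a control-diet P300 site but no NASH P300 site, and its H3K27ac was 26.40 and 16.80 normalised tags in the control libraries and 13.87 and 11.44 in the NASH libraries (adjusted p = 0.268, limma-trend). Among LXR-only regions, that at Fasn (fatty acid synthase), 179 bp upstream of a start site at chr11:120824619-120824833, was among the first 4 with an LXR score of 270. It had a control-diet LXR site, and no ATF3 or P300 site on either diet.

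ATF3+P300 regions without an LXR site were led by Irf5 (2328 bp upstream, chr6:29524051-29524543, P300 score 253), Id3 (75 bp upstream, chr4:136143530-136143965, P300 score 233), Atp6v1b2 and Irf1 (5932 bp upstream, P300 score 194). The Irf1 region (chr11:53763929-53764236) lay next to a 3-factor region at chr11:53763593-53763834 with an LXR score of 110, so LXR had a listed site close by. Irf5 and Irf1 encode interferon regulatory factors, and Id3 an inhibitor of basic helix-loop-helix factors that marks Kupffer cells. The first-ranked ATF3-only regions lay within 547 bp of the start sites of Psma3 (a proteasome subunit), Isca1 (iron-sulfur cluster assembly), Leng9 and Dnajb6 (a chaperone), though such positions made up 7.33% of the combination. These 4 were ordered by H3K27ac because their ATF3 scores were tied. The first-ranked P300-only regions included the promoters of Kctd12 (P300 score 236) and Irf8 (P300 score 219), a factor of macrophage identity. Another, at chr17:39846079-39846443, had Esp38 as its nearest gene, 104259 bp away, in a window annotated as non-coding. Close by, an LXR+P300 region (chr17:39845322-39845916, scores 604 and 360) and an LXR-only region (LXR score 363) also ranked among the first 4 of their combinations. 3 of the 4 first-ranked LXR+P300 regions had high H3K27ac for a single window: 34606.40 and 40845.30 normalised tags on NASH at the region nearest to Lrrc4c (chr2:98667034-98667252), 1488.02 and 1932.29 nearest to Rpusd4 and 3048.58 and 3242.66 at Chl1, beside a median of 6.40 and 5.72 over the combination. All 3 also had very high values on the control diet. The LXR score of 1094 and the P300 score of 1688 at the Lrrc4c region were the highest of their lists. Whether such signal reflects binding of the factors was not tested.

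Regions were assigned to the nearest of 20131 protein-coding genes with a start site. At least 1 region of any kind was nearest to 13394 genes (66.5%), a 3-factor region to 8460 (42.0%), LXR+P300 to 7218 (35.9%), LXR only to 5612 (27.9%), P300 only to 5325 (26.5%), ATF3 only to 4451 (22.1%), ATF3+P300 to 2397 (11.9%) and LXR+ATF3 to 2250 (11.2%). Genes were then read through lists chosen by function.

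Kupffer cell identity genes had a 3-factor region in 28 of 30 cases, beside 42.0% of all genes. The exceptions were Timd4 and Xlr. At C1qb, a chain of the complement component C1q, the 3-factor region lay 25 bp upstream of the start site with an LXR score of 279 and a P300 score of 300. At Clec4f, the galactose-binding lectin of Kupffer cells, the first-ranked 3-factor region was 24115 bp downstream of the start site with scores of 399 and 205, while the promoter itself (3 bp upstream) held LXR+P300 with 61 and 93. Vsig4, a complement receptor, likewise held LXR+P300 34 bp upstream of its start site, with 52 and 92. Maf, which encodes a factor of macrophage identity, was nearest to 25 such regions.

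Timd4, which encodes the Tim4 receptor used in the sort, had no 3-factor region on the NASH diet. It was nearest to 4 LXR-only regions, 1 ATF3-only and 1 P300-only region. All 6 overlapped a control-diet LXR site, and 4 of the 6 a control-diet site of another factor as well. The P300-only region sat on the promoter (31 bp upstream, chr11:46810617-46810920). Its window had 12.67 and 15.03 normalised H3K27ac tags in the control libraries and 0.53 and 1.56 in the NASH libraries (log2 change -2.90, SE 0.56, adjusted p = 0.00491, limma-trend). The NASH values are at or under the 3 tags that a count of 0 allows, which are 1.60 and 1.56 normalised tags. The LXR-only region 7152 bp downstream had 8.45 and 16.36 on control and 0 in both NASH libraries (adjusted p = 0.00247, limma-trend). The diets did not overlap at either window.

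LXR target genes had a 3-factor region in 20 of 26 cases and an LXR+P300 region in 21, beside 42.0% and 35.9% of all genes. Abca1, the cholesterol exporter, was nearest to 94 regions: 30 with all 3 factors, 10 LXR+P300, 3 LXR+ATF3, 4 LXR only, 4 ATF3 only and 43 P300 only. Its promoter region (101 bp upstream, chr4:53159749-53160244) held all 3 with an LXR score of 255 and a P300 score of 250, but its highest LXR score, 340, belonged to an LXR+P300 region 58327 bp upstream. Abcg1, its partner in cholesterol efflux, was nearest to 8 regions with all 3 and 13 with LXR+P300, with LXR scores up to 351 (17898 bp upstream, all 3 factors). Apoe held all 3 factors at its start site (91 bp downstream) with 99 and 207. Srebf1, the master regulator of fatty acid synthesis, had 1 3-factor region with a low ATF3 score (LXR 157, ATF3 IDR score 556) and 3 LXR+P300 regions, the first of them 110 bp upstream of a start site with an LXR score of 378. Nr1h3, which encodes LXRα itself, held all 3 factors 1837 bp upstream (190 and 189). Fasn, Lpcat3, Ncor1, Abcg5, Abcg8 and Pnpla3 had no 3-factor region.

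The ATF and AP-1 list had a 3-factor region at 25 of 26 genes, beside 42.0% of all genes, the exception being Atf5. Atf3 itself was nearest to 24 regions, 13 of them with all 3 factors. The first-ranked was 47345 bp upstream (LXR score 216, P300 score 184), whereas the region next to the start site (767 bp downstream) was LXR+P300 with 34 and 71 and had H3K27ac of 125.34 and 114.92 normalised tags on NASH. Jun held ATF3+P300 at its start site (3 bp downstream, P300 score 168) and LXR+P300 304 bp upstream. Cebpb, a C/EBP factor of inflammatory macrophages, was nearest to 23 regions with all 3, and Fos to 15, with scores of 233 and 270 for the first. In the stress-response list 21 of 24 genes had a 3-factor region, among them Ddit3, which encodes CHOP, 235 bp upstream (120 and 142) and Hmox1, heme oxygenase, 3884 bp upstream (285 and 185). Trib3, Hspa5 and Nqo1 had none. NF-κB and inflammation genes had such a region in 25 of 28 cases, with Tnfaip3, a brake on NF-κB signalling, nearest to 24 and Il6 to 4, the first of which had scores of 406 and 252.

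The genes listed for scar-associated and lipid-associated macrophages had a 3-factor region in 24 of 27 cases, beside 42.0% of all genes. Spp1, osteopontin, had none. It was nearest to 4 ATF3-only regions, 1 LXR+ATF3 region (9076 bp upstream) and 1 LXR-only region, no P300 site, and no control-diet site of any factor. Trem2, the lipid receptor of these cells, had 3 such regions, 1 of them 42 bp downstream of its start site (LXR score 75, P300 score 101), and no ATF3-only region. At Gpnmb, a glycoprotein of lysosome-rich macrophages, 14 regions alternated over the gene: 5 with all 3 factors, 5 P300 only and 1 each of LXR+ATF3, LXR+P300, ATF3+P300 and ATF3 only, of which 1 (23304 bp upstream, all 3 factors) overlapped a control-diet LXR site and the rest no control-diet site. Cd36, the fatty acid scavenger receptor, held ATF3+P300 at 1 start site (16 bp downstream) and LXR+P300 at another (20 bp upstream), and was nearest to 9 regions with all 3.

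Cholesterol synthesis genes were the functional list with the fewest 3-factor regions, 8 of 15, with Insig1 and Dhcr7 nearest to 3 each, and Mvd and Lss among the genes with none. Interferon genes followed with 16 of 22 and housekeeping genes with 12 of 16. The share was 18 of 21 for lysosome, 20 of 22 for TGF-β, BMP and Notch, 15 of 17 for antigen presentation, 19 of 20 for scavenger receptors and phagocytosis, 17 of 19 for matrix and growth factors and 27 of 27 for macrophage factors. Marker lists of other cells had 1 of 8 for hepatocytes, 2 of 6 for stellate cells, 1 of 3 for cholangiocytes, 1 of 8 for T and NK cells, 1 of 5 for B cells, 2 of 5 for monocytes, 3 of 7 for neutrophils, 3 of 6 for dendritic cells and 6 of 8 for endothelium. The share over all genes was 42.0%, and the monocyte (40.0%) and neutrophil (42.9%) lists lay near it. Alb, Apob, Cyp2e1, Cd3e and Cd79a had no such region. Endothelial Stab2 was nearest to 5 and Cdh5 to 2.

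Some genes held many P300-only regions. Of the P300-only regions inside gene spans, 11.5% lay in the 50 genes with the most. In the top 50 of each other combination the share was 9.31% for ATF3+P300, 9.07% for LXR+ATF3, 7.58% for ATF3 only, 6.53% for all 3, 6.00% for LXR only and 5.75% for LXR+P300. There were 46 genes with 10 or more P300-only regions inside them, holding 769. These genes, chosen after their values were seen, included Abca1 with 47, Zeb2 (a macrophage identity factor) with 43, Mertk (a receptor for dying cells) with 30, the lysosomal genes Ctsc with 35, Ctsb with 27, Psap with 24, Lgmn with 23 and Ctsd with 15, the iron exporter Slc40a1 with 19, lipoprotein lipase Lpl with 17, Clec4f with 15 and the growth factor receptor gene Csf1r with 13. Ctsb held 11.5 per 10 kb over 23.5 kb, Ctsd 12.6 and Clec4f 13.0 over 11.6 kb. Inside these 46 genes lay 365 3-factor regions and 207 LXR+P300 regions, but 74 LXR-only and 34 ATF3-only regions. Slc40a1, Ctsd and Clec4f had none with all 3 inside the gene, and at Ctsa, with 16 P300-only regions nearest to it, the 3-factor count was likewise 0.

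Most of the P300-only regions in the 46 genes were outside accessible windows: 621 of 769 (80.8%), while 48.2% of all P300-only regions were inside one. Their genes were rich in H3K27ac. The summed H3K27ac of the accessible windows inside a gene was at the 99.0 percentile of all genes (median) with 10 or more P300-only regions, 97.4 with 5 to 9, 90.4 with 2 to 4, 77.6 with 1 and 24.2 with none. Gene length also differed between these classes. The median span was 44.2 kb with 10 or more, 71.5 kb with 5 to 9, 54.6 kb with 2 to 4, 28.8 kb with 1 and 14.5 kb with none. Gene length thus rose with the percentile up to 5 to 9 regions but not in the class with 10 or more. Its part in the percentile was not tested. High percentiles were not limited to genes with P300-only regions. Among genes with 5 or more regions of a combination, the median percentile was 98.3 for LXR+P300 (194 genes, median span 150 kb), 98.0 for P300 only (201 genes, 67.9 kb), 97.2 for LXR only (85 genes, 240 kb), 95.8 for all 3 (750 genes, 117 kb) and 93.9 for ATF3 only (62 genes, 312 kb). Abca1 had 860.30 and 770.64 summed normalised tags on NASH, and 683.32 and 680.95 on control. Slc40a1 had 69.32 and 58.76 on NASH and 178.51 and 166.70 on control.

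**Figure D4:**
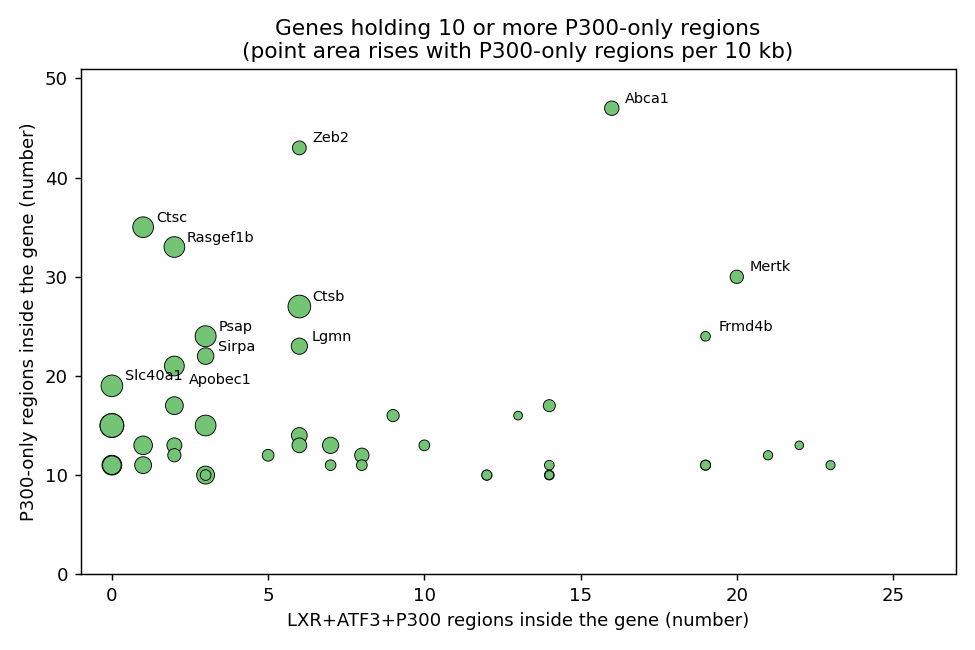
Each of the 46 points is a gene with 10 or more P300-only regions inside it; the horizontal axis counts its 3-factor regions and the vertical axis its P300-only regions, and the point's area rises with P300-only regions per 10 kb. The 12 genes with the most are named: Abca1 (47) and Zeb2 (43) lead, and Ctsc with 35 has a single 3-factor region.

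By nearest start site, 3-factor regions were most numerous at Trib1 (37), Lpp (36), Bhlhe40, Btg1 and Klf6 (34 each), and ATF3-only regions at Lpp (19), Zeb2 (14), Trib1 (13) and Klf6 (12), again genes chosen after their values were seen. LXR-only regions were led by Tmcc3 (14), Pik3r1 (13) and Jarid2 (12). The median distance from a P300-only region to the nearest 3-factor region was 5991 bp, from LXR+P300 6924 bp, from LXR+ATF3 7404 bp, from LXR only 7869 bp and from ATF3 only 11543 bp, while a 3-factor region was 4712 bp from the next.

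H3K27ac was measured in 70300 accessible windows with 2 libraries per diet, holding 9468035 and 22615879 (control) and 18749728 and 19231109 (NASH) tags, and the values are the authors' normalised tags, set to a library size of 10000000. Each window was read by the NASH combination of the region over it. In NASH libraries 1 and 2 the median was 6.40 and 6.24 normalised tags in windows with all 3 factors, 6.40 and 5.72 with LXR+P300, 5.87 and 5.20 with P300 only, 4.80 and 4.42 with ATF3+P300, 3.20 and 3.12 with LXR+ATF3, 2.67 and 2.60 with LXR only, 2.13 and 2.08 with ATF3 only and 1.60 and 1.56 with no listed site. Over all windows, the 4 combinations with P300 were above those without it in both libraries. The ranges of 3-factor and LXR+P300 windows overlap between libraries. Over 1000 bp from start sites the values were 5.33 and 5.20 with all 3, 4.27 and 3.64 with LXR+P300, 3.20 and 3.12 with P300 only and the same with ATF3+P300, and 1.60 and 1.56 with ATF3 only. LXR+ATF3 windows there had 2.67 and 2.60. Within 1000 bp of a start site all combinations were higher, with 14.93 and 13.52 for ATF3+P300, 13.87 and 11.96 for all 3, 12.27 and 10.40 for P300 only, 11.20 and 9.36 for both LXR+ATF3 and ATF3 only, 10.67 and 9.36 for LXR+P300 and 8.53 and 7.28 for LXR only. There LXR+P300 was not above the combinations with ATF3 and no P300.

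The diets were compared window by window with limma-trend on log2(value + 1), calling windows with a log2 change of 1 or more in size and an adjusted p below 0.05. Of 35947 tested windows 720 were raised on the NASH diet (2.00% of the tested) and 1651 were lowered (4.59%). ATF3-containing windows without the full set were raised more often than that background: ATF3 only in 36 of 673 (5.35%), ATF3+P300 in 55 of 1059 (5.19%) and LXR+ATF3 in 34 of 744 (4.57%). Windows with all 3 factors were raised in 299 of 14657 (2.04%), at the background, and lowered in 310 (2.12%), under it. LXR+P300 windows were raised in 57 of 6818 (0.836%) and lowered in 317 (4.65%). LXR-only windows were lowered in 160 of 1883 (8.50%) and raised in 28 (1.49%), and P300-only windows were lowered in 144 of 2825 (5.10%) and raised in 55 (1.95%). Windows with no listed site were lowered in 640 of 7288 (8.78%). No test was made of these shares against each other. The share of windows that passed the filter on low tags went from 30.02% with ATF3 only to 61.8% with LXR+P300. A window could pass that filter on the tags of a single diet, and the combinations were defined by NASH sites alone. The part of this selection in the raised shares was not tested. The groups also differed in accessibility. Windows on the 20-week list alone were 866 of 2242 with ATF3 only, 390 of 1830 with LXR+ATF3 and 394 of 2112 with ATF3+P300, against 9.72% of all windows. Windows on the control list alone were 1742 of 4367 with LXR only and 10641 of 20088 with no site, against 28.2% of all. The part of accessibility in the called shares was not tested.

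Scaling set the balance of raised to lowered windows. With TMM factors, which moved the median change of the tested windows from -0.26 to -0.0038 on the log2 scale, 1193 windows were raised and 902 lowered. The counts were then 485 raised and 133 lowered with all 3 factors, 135 and 154 with LXR+P300, 53 and 18 with ATF3 only, 75 and 16 with ATF3+P300, 47 and 9 with LXR+ATF3, 50 and 99 with LXR only and 88 and 69 with P300 only. So with TMM the balance turned for the 3-factor and P300-only windows. It also turned for LXR+P300 with DESeq2 (56 raised and 27 lowered) and, without NASH library 1, for ATF3 only (10 and 12) and LXR+ATF3 (11 and 14), and ATF3 only had 39 of each without control library 2. Under each alternative that made calls, ATF3+P300 had more raised than lowered windows and LXR only had fewer. Relative to the median of all tested windows, the median change was 0.16 with ATF3 only, 0.14 with ATF3+P300, 0.08 with all 3, 0.07 with LXR+ATF3, -0.04 with P300 only, -0.10 with LXR+P300 and -0.11 with LXR only, and each sign was the same with TMM. Without NASH library 1 the calls fell to 200 raised and 770 lowered, and without NASH library 2 to 202 and 466, while without control library 2 they were 880 and 2501.

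**Figure D5:**
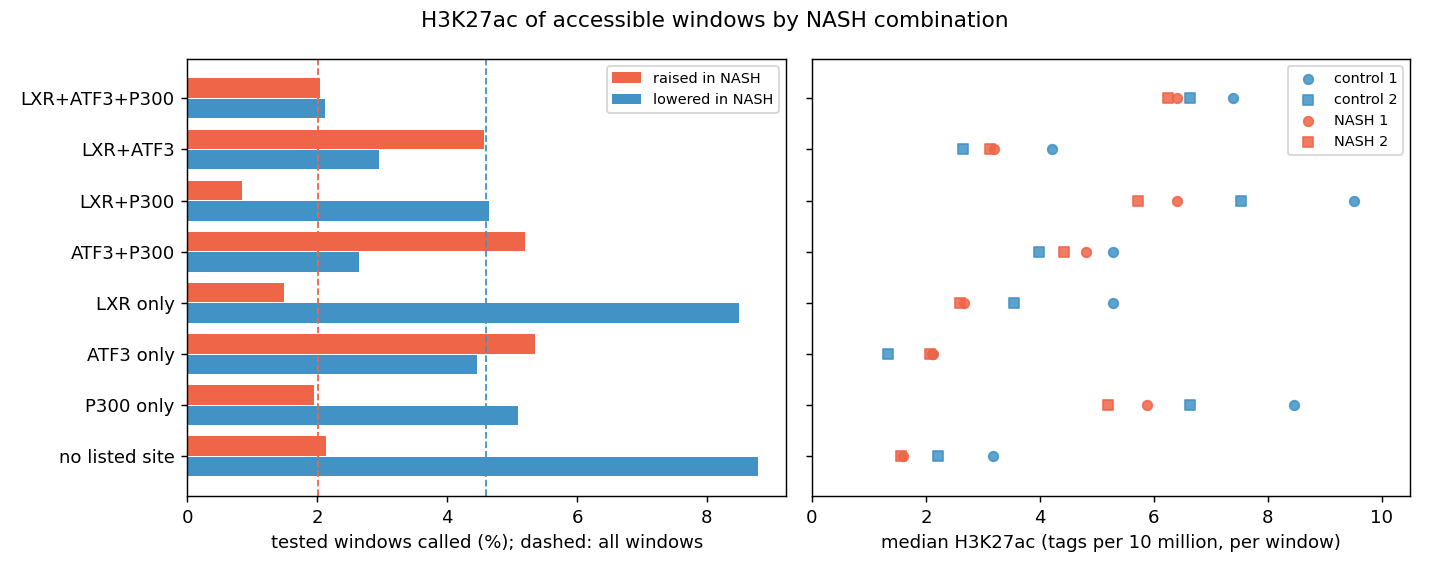
Bars on the left give the percentage of tested windows called raised or lowered on the NASH diet for each NASH combination, with dashed lines at the background of all tested windows (2.00% and 4.59%); points on the right give the median H3K27ac of all windows in each of the 4 libraries, in normalised tags (library size 10000000). ATF3 only, ATF3+P300 and LXR+ATF3 have raised shares of 4.57% to 5.35%; in the ATF3-only row the point of control 1 (2.11) is hidden by NASH 1 (2.13).

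Single windows illustrate these groups. The LXR+ATF3 window at the Gpnmb start site (chr6:49036511-49036711) had 1.06 and 0 normalised tags on control and 30.93 and 36.40 on NASH (log2 change 4.59, SE 0.53, adjusted p = 0.000155, limma-trend). The neighbouring P300-only window 667 bp downstream went from 2.11 and 1.33 to 41.07 and 39.00, and the 3-factor window 572 bp upstream from 0 and 0.44 to 25.07 and 16.64, so windows of 3 different combinations within the promoter were all raised. Control values there are under or near the floor of 3.17 and 1.33 normalised tags that a count of 0 allows. The window at the LXR+ATF3 region of Spp1 (chr5:104425961-104426161, 9050 bp upstream) had 0 and 0.44 on control and 23.47 and 15.08 on NASH (log2 change 4.05, SE 0.58, adjusted p = 0.000627, limma-trend).

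With ATF3+P300, the window 19723 bp upstream of Plin2, which encodes a lipid droplet coat protein, had 20.07 and 16.80 on control and 84.80 and 75.92 on NASH (adjusted p = 0.000293, limma-trend). A P300-only window on the same chromosome at chr4:86713035-86713235, assigned to Dennd4c, had 0 in both control libraries and 27.73 and 40.04 on NASH. The P300-only window 1809 bp upstream of Traf1, a TNF receptor adaptor, had 4.22 and 9.73 on control and 99.20 and 73.84 on NASH (log2 change 3.53, SE 0.36, adjusted p = 4.32e-05, limma-trend). At the LXR+P300 window 14 bp upstream of a Myo5a start site the values were 1.06 and 0, then 24.00 and 24.44. ATF3-only windows included 1 at chr2:32714971-32715171, 2099 bp upstream of Mir3960, with 0 on control and 32.53 and 29.12 on NASH, and 1 in Pik3cb, a PI3-kinase subunit gene, with 8.45 and 5.31, then 30.40 and 48.36. All these windows were on the 20-week-diet ATAC list only. With all 3 factors, Xylt1, a xylosyltransferase gene, held a window on that list only that had 2.11 and 0 on control and 32.53 and 45.24 on NASH. Other raised windows chosen by the same rule were on both ATAC lists. The 3-factor window 34921 bp upstream of Pik3r6 had 5.28 and 5.75, then 61.87 and 48.88 (adjusted p = 9.62e-05, limma-trend). The LXR+P300 window 454 bp downstream of a Lat2 start site had 3.17 and 2.65, then 29.87 and 25.48.

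Lowered windows were led by Pcolce2, a Kupffer cell gene for a procollagen C-proteinase enhancer. Its LXR+P300 window 44343 bp downstream of the start site had 85.55 and 92.41 on control and 6.93 and 9.36 on NASH (log2 change -3.31, SE 0.30, adjusted p = 1.35e-05, limma-trend), and its P300-only window 316 bp downstream had 59.15 and 53.50, then 12.27 and 8.84. Of LXR-only windows, that in Arl15 had 48.58 and 51.73 on control and 6.40 and 7.28 on NASH (adjusted p = 0.000227, limma-trend). Of 3-factor windows, that in Fan1, a nuclease gene, had 27.46 and 31.84, then 2.13 and 2.08. Egr3, an early growth response factor, had an ATF3-only window 15616 bp upstream with 36.97 and 38.91 on control and 7.47 and 9.88 on NASH, so lowered H3K27ac was also found at an ATF3-only region. Rras2, a Ras-like GTPase gene, had an ATF3+P300 window at 32.74 and 32.72, then 9.60 and 5.20 (adjusted p = 0.00381, limma-trend). The diets did not overlap at any of the windows named. Their adjusted p-values depend on the filter on low values, since without it limma-trend called 0 windows raised and 0 lowered. The fit without each library was read for the windows chosen by the smallest adjusted p, not for the other 2 Gpnmb windows. Those chosen kept an adjusted p under 0.05 except Rras2 and Pik3cb, which had 0.0554 and 0.0795 without NASH library 2.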

How the data were processed

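Sites and H3K27ac were analysed for F4/80-Hi Tim4-Pos Kupffer cells, grouped by the sample labels. The 10 input samples and 1 peritoneal macrophage library were not analysed here. Members, gene lists and alternatives were chosen with earlier results of these data known.

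The submitters' processing notes name mm10 (GRCm38), HOMER, Bowtie2 and DESeq2; versions were not given in the sources used here. Per the file headers, the LXR and P300 lists joined both libraries at an IDR threshold of 0.05. The deposited ATF3 lists came through HOMER mergePeaks, with an IDR threshold that the sources used here do not state, and their unnamed score column was read as the IDR score. The enrichment score and IDR score per site are the authors' own. No deposited list had an IDR score under 540. The deposited H3K27ac values are a signal: tags in each window at a library size of 10000000, per the file headers. Multiplying by the library totals gave whole tags within 0.02 for 100% of values, and a count of 0 allows 3 tags (3.17, 1.33, 1.60 and 1.56 normalised tags).

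Sites overlapping by at least 1 bp were joined, a window took the combination of the region with the largest overlap, and the nearest gene was that with the nearest protein-coding start site to the region's centre. Start sites came from the RefSeq promoter table (32851). Where that table had none close by, positions implied by the HOMER distances of the window table were added (5526), which could belong to genes already in it. Together they covered 20131 of 21896 genes. Regions on chrM or unplaced sequence numbered 118. H3K27ac was fitted with limma 3.58.1 (limma-trend on log2(value + 1)) on the 35947 windows kept by edgeR's filterByExpr, with Benjamini-Hochberg adjustment over all of them. edgeR 4.0.16 and DESeq2 1.42.0 were alternatives on the recovered tags (edgeR called 1357 windows raised and 1130 lowered). The fit was tested on simulated data. R 4.3.3, Python 3.11.15, pandas 2.3.3, numpy 2.4.6 and scipy 1.17.1 were used.

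Named regions were the first 4 per combination by mean within-list rank, 1 per gene and without predicted genes. Named genes were the 30 loci and the 24 lists (373 names), with up to 4 genes per list by rank; some are not reported here. Named windows were the 2 smallest adjusted p-values per direction and combination among called windows, 1 per gene and without predicted genes. Promoter letters, gene-span counts and distances between regions were added after the data were seen.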

Additional observations from a re-analysis of the deposited data

How the results depend on the processing

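The lists hold 1 value per site from both libraries, so nothing at the site level has a replicate error, and combinations rest on each list's threshold and length. The deepest H3K27ac library held 22615879 tags and the shallowest 9468035, and a count of 0 in a window allows an expected count of up to 3 tags. Under the alternatives, 77 values that answer a comparison stayed within their spread or within 1.5 times and 92, printed below, moved; of counts for single combinations and lists 116 stayed and 108 moved. These are counts, shares and levels, which carry no sign. The median log2 change of tested windows, which does, went from below to above 0 with TMM for all 3 factors (0.07), LXR+ATF3 (0.08), ATF3+P300 (0.14) and ATF3 only (0.15).

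The share near a start site was, within 500 bp, 15.2 (LXR+ATF3+P300), 9.65 (LXR+ATF3), 29.4 (LXR+P300), 12.5 (ATF3+P300), 11.6 (LXR only), 4.39 (ATF3 only) and 17.7 (P300 only)%; within 2000 bp, 22.4 (LXR+ATF3+P300), 18.1 (LXR+ATF3), 39.0 (LXR+P300), 21.2 (ATF3+P300), 21.9 (LXR only), 11.4 (ATF3 only) and 31.1 (P300 only)%; with sites joined by at least 100 bp, 17.5 (LXR+ATF3+P300), 16.0 (LXR+ATF3), 19.2 (LXR only), 9.37 (ATF3 only) and 26.9 (P300 only)%; and with scores of at least 830, 15.9 (LXR+ATF3+P300), 11.9 (LXR+ATF3), 39.2 (LXR+P300), 18.4 (LXR only) and 33.9 (P300 only)%. LXR+P300 was highest and ATF3 only lowest in each.

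The share without a control-diet site was 52.8 (LXR only), 90.8 (ATF3 only) and 66.1 (P300 only)% at an overlap of 100 bp and 15.6 (LXR+ATF3+P300), 57.8 (LXR+ATF3), 18.5 (LXR+P300), 64.0 (ATF3+P300), 46.6 (LXR only), 91.8 (ATF3 only) and 65.1 (P300 only)% at scores of at least 830.

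Over 1000 bp from a start site, median LXR scores were 61 (LXR+ATF3+P300), 32 (LXR+ATF3) and 37 (LXR+P300), median P300 scores 62 (LXR+ATF3+P300), 37 (LXR+P300) and 29 (P300 only), and the ATF3 share at the highest score 79.5 (LXR+ATF3+P300)%. With a join of 100 bp, the median LXR score was 34 (LXR+ATF3) and the median P300 score 31 (P300 only). Within 20000 bp, genes numbered 1375 (LXR+ATF3), 1505 (ATF3+P300) and 2668 (ATF3 only). Lists of like length gave 7829 (LXR+P300), 6331 (LXR only) and 6169 (P300 only) regions.

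NASH H3K27ac per window was, as a mean, 11.3 (LXR+ATF3+P300), 9.12 (LXR+ATF3), 17.7 (LXR+P300), 11.8 (ATF3+P300), 9.46 (LXR only), 7.98 (ATF3 only), 13.9 (P300 only) and 9.59 (no site); as a median beyond 1000 bp, 5.26 (LXR+ATF3+P300), 2.63 (LXR+ATF3), 3.96 (LXR+P300), 3.16 (ATF3+P300), 2.10 (LXR only), 1.58 (ATF3 only), 3.16 (P300 only) and 1.05 (no site); with TMM, 6.96 (LXR+ATF3+P300), 3.48 (LXR+ATF3), 6.65 (LXR+P300), 5.07 (ATF3+P300), 2.90 (LXR only), 2.32 (ATF3 only), 6.07 (P300 only) and 1.74 (no site); and at scores of at least 830, 6.58 (LXR+ATF3+P300), 7.12 (LXR+P300), 5.00 (ATF3+P300), 3.16 (LXR only), 7.12 (P300 only) and 2.10 (no site). The means include single windows with very high values, such as that at the LXR+P300 region nearest to Lrrc4c (34606.40 and 40845.30 on NASH).

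H3K27ac calls were 1193 raised and 902 lowered with TMM, 1357 raised with edgeR's quasi-likelihood test, and 428 and 206 with DESeq2. Without the filter on low values limma-trend called 0 and 0, although 3405 and 7404 windows had an unadjusted p under 0.05. Leaving out each library in turn gave 200 to 953 raised and 466 to 2501 lowered windows, where the lone library of a diet is assumed to vary like the other diet. The difference between replicates 1 and 2 had a correlation of 0.0399 between the diets across windows. With 2 libraries per diet, this cannot tell whether libraries of the same replicate number were handled together. A fit with a replicate block called 2837 windows lowered and 1053 raised. The cause of these differences was not tested.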
